A study of Mus musculus with 3 samples.

Results

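The genes described here are the receptors of the epidermal growth factor (EGF) family, their ligands and 1 feedback inhibitor, in sorted cells of mouse back-skin epidermis. They are 10 genes chosen by name, Egfr, Erbb2, Erbb3, Areg, Ereg, Hbegf, Btc, Tgfa, Epgn and Errfi1, of 49386 gene names in the deposited files, and all 10 were found there by their Ensembl gene identifier. The mice were wild type, of the strain C57BL/6 and 7 weeks old, with the back skin in its second telogen, the resting phase of the hair cycle. Epidermis was freed from dermis with thermolysin, and flow cytometry with antibodies against CD34 and the integrin Itga6 gave 3 populations: CD34-negative cells (N, called non-stem cells by the submitters), CD34-positive cells with high Itga6 (B, basal bulge stem cells) and CD34-positive cells with low Itga6 (S, suprabasal bulge stem cells). Each population's RNA came from a pool of 4 mice and was preamplified, so each group had 1 library, no difference below has a replicate error, and none was tested.

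Ligands of this family are made as membrane-bound precursors that are cut free by proteases and bind receptors on the same or neighbouring cells. Bound receptors pair, phosphorylate each other and switch on the RAS and MAP kinase cascade and PI3 kinase. In skin the pathway is known for its part in keratinocyte growth and in hair follicle cycling, and mice that lack Tgfa or carry a weak Egfr have wavy coats. Resting stem cells of the hair follicle sit in its bulge, in an outer basal and an inner suprabasal layer.

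Levels are FPKM, the sequenced fragments of a gene relative to its transcript length and to the library's mapped fragments. They are per length and can be set side by side between genes. The values were divided by a median-of-ratios factor for each library and are called scaled FPKM. Each level has an exact Poisson interval of 95%, from the fragments estimated for the longest coding transcript. They take in counting error alone, so amplification and variation from mouse to mouse are not in them. The steps between low values put the depth at 35.5 M fragments (M, mega) in N, 32.7 M in B and 31.3 M in S. The sort gene Cd34 was at 0.201 scaled FPKM in N, 144 in B and 215 in S, and Itga6 at 115, 49.3 and 33.1. Of 8 bulge stem cell markers, 7 were at least 2-fold higher in B than in N and all 8 in S, with Krt15 the most abundant. In bulk libraries such as these, fewer cells of a type and less RNA per cell cannot be told apart.

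The promoters of 3 members are shown to place their start sites. The members are Epgn, the ligand gene with the widest range of levels, Areg, on the same chromosome, and the feedback inhibitor Errfi1. Their windows shown here were the only searched ones with a match to a searched motif. They are RefSeq windows (GRCm38.p6, the mm10 assembly) from 250 bases before to 50 after a start, on the plus strand: Epgn at chr5:91027267-91027566, Areg at chr5:91139349-91139648 and the second listed start of Errfi1 at chr4:150854820-150855119. Capitals mark a TATA box (searched as TATAAA) and a cAMP response element (TGACGTCA).
Epgn: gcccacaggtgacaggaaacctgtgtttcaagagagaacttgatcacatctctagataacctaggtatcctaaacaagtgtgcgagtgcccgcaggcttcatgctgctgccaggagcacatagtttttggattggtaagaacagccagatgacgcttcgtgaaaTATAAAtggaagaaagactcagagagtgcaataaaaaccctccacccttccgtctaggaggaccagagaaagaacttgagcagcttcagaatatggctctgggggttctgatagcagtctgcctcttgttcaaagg
Areg: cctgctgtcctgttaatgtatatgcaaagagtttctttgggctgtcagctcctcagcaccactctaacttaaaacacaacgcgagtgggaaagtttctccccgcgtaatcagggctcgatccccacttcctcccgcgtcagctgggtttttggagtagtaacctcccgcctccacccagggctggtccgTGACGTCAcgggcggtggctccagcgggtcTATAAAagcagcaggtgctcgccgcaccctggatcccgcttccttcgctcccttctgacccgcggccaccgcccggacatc
Errfi1: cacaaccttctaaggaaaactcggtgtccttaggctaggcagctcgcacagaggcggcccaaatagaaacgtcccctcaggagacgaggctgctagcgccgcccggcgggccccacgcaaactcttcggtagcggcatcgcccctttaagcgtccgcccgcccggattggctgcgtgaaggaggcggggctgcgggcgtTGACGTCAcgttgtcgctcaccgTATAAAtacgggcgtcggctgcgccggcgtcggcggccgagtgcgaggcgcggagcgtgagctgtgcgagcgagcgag
Windows of 7 of the 10 members were searched. There was none for Erbb3 and Ereg, and Hbegf was left out of the search. A TATAAA match on either strand was present in these 3 windows and in 13.6% of all 32851 windows of this length. The other windows searched, of Egfr, Erbb2, Btc, Tgfa and the first listed start of Errfi1, had neither TATAAA nor TGACGTCA. In Areg the match began 31 bases before the RefSeq start. In Epgn it began 86 bases before the RefSeq start and 33 before the start of the gene in the deposited files. The Errfi1 match began 28 bases before the second listed start, but 1123 after the start of the gene in the deposited files. TGACGTCA was present in Areg and Errfi1, and in 1.79% of all windows. The AP-1 element (TGANTCA) was in none of the members' windows that were searched, and in 7.81% of all windows. In windows of coding genes the shares were 12.6% for TATAAA, 2.23% for TGACGTCA and 6.99% for TGANTCA. None of the searched motifs overlapped another. These matches describe the letters and were not tested for binding.

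Of the 10 members, 8 reached a mean of 1 scaled FPKM over the 3 libraries and are called measured, and Btc and Ereg did not. A gene was counted as different between libraries where the log2 ratio of scaled FPKM plus 1 was 1 or more in size (2-fold). In B against N, 2 of the 8 were lower (Epgn and Erbb3) and 0 higher, where 7.11% of all 11598 measured genes were lower and 7.27% higher. In S against N, 2 of 8 were lower (Epgn and Hbegf) and 0 higher, with 10.9% and 9.58% of all measured genes. In S against B, Epgn alone was lower and 0 were higher, with 5.93% and 3.9%. In either direction the share of all measured genes was 14.4% for B against N, 20.5% for S against N and 9.83% for S against B. The median log2 ratio of the 8 was -0.28 for B over N, -0.57 for S over N and -0.31 for S over B, and over all measured genes it was -0.04, 0.02 and 0.06. The comparisons share libraries (N in the first pair, S in the last pair), so their ratios are not independent.

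**Figure D1:**
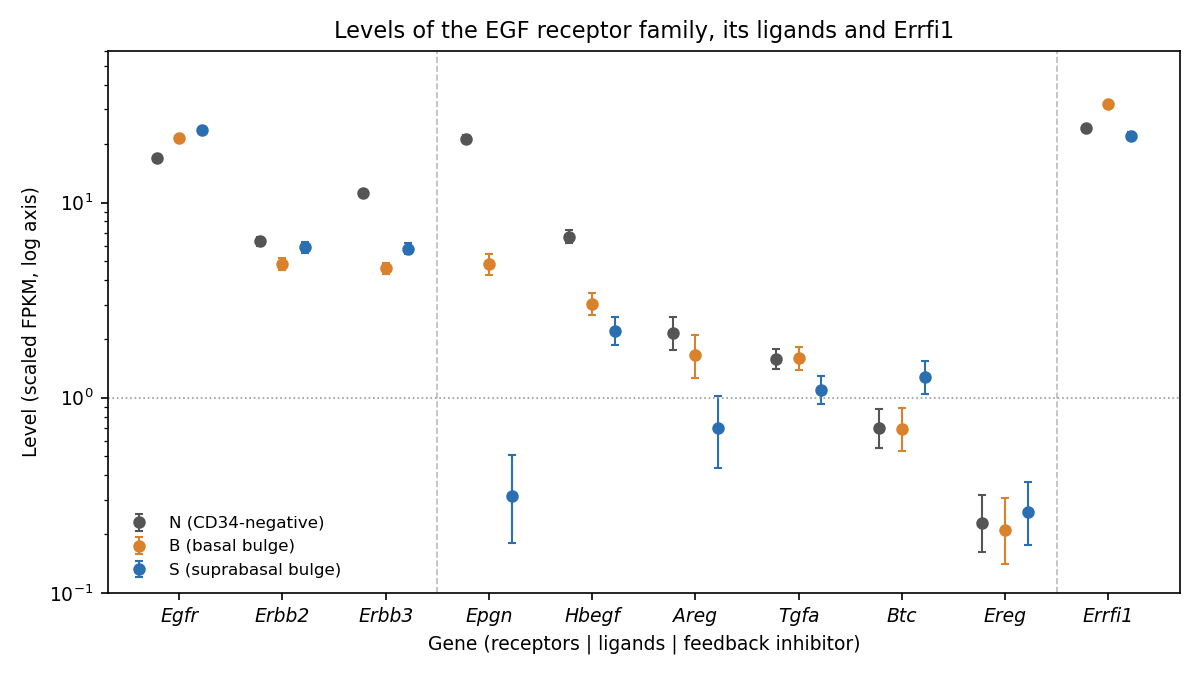
Level of each member in scaled FPKM (log axis) in the N, B and S libraries, with bars for the exact Poisson interval of 95% and a dotted line at 1. Epgn spans 21.2 to 0.313, while Egfr lies between 17.0 and 23.7 in all 3 libraries.

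Among the receptors, Egfr had the highest level in each library and differed little between them. Egfr encodes the receptor that binds EGF, TGF-alpha, amphiregulin and epigen, and lies on chromosome 11 (16752203 to 16918158, plus strand, mm10, ENSMUSG00000020122). Its level was 17.0 (N), 21.5 (B) and 23.7 (S). N was lowest, and the counting intervals of the 3 libraries did not overlap (16.5 to 17.4, 21.0 to 22.0 and 23.1 to 24.2). They rest on the longest transcript, with 7036 fragments in B and 6974 in S, against 319 and 316 for the shortest coding one. The log2 ratio of S over B was 0.13, and 0.009 to 0.14 over the settings of the closing section. The gap between B and S thus depends on the scaling. The log2 ratio was 0.33 for B over N and 0.46 for S over N, short of 2-fold. Among all measured genes Egfr stood at the 82.2nd percentile of level in N, the 87.7th in B and the 88.1st in S.

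Erbb2, on chromosome 11 (98412470 to 98437716, ENSMUSG00000062312), encodes the family member without a known ligand of its own, which pairs with the others. It was at 6.32 (N), 4.87 (B) and 5.89 (S). The intervals of N (5.97 to 6.68) and S (5.51 to 6.30) overlapped, and the log2 ratio of S over N, -0.09, changed sign with the scaling. An exon of Mien1 on the other strand overlaps Erbb2, and Mien1 was at 21.8, 24.8 and 36.7 in N, B and S. The part of such reads in the Erbb2 values was not tested.

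Erbb3, on chromosome 10 (128567523 to 128589652, minus strand, ENSMUSG00000018166), encodes a neuregulin receptor with a weak kinase that acts in pairs with ErbB2 or EGFR. It was at 11.2 (N), 4.60 (B) and 5.80 (S). N was highest, at 2.44-fold the level of B and 1.93-fold that of S. The log2 ratio was -1.12 for B over N and -0.84 for S over N. With the libraries set to the same total without mitochondrial genes the ratio of B over N fell short of 2-fold. Erbb3 is also known from Schwann cells. Of 9 Schwann cell markers 1 was measured, Mbp, at 3.62 (N), 2.16 (B) and 2.60 (S). The summed level of the list was 4.08, 4.04 and 2.88, and the defining gene Sox10 was at most 0.117 in any library.

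Egfr had the largest share of the receptor transcripts in each of the 3 libraries. Its share of the summed FPKM of Egfr, Erbb2, Erbb3 and Erbb4 was 49.0% in N, 69.4% in B and 66.9% in S. Such a share does not depend on the scaling. The share of Erbb3 was 32.4% in N, 14.8% in B and 16.4% in S, and that of Erbb2 lay between 15.7% and 18.3%. Erbb4, the second neuregulin receptor, was at most 0.238% of this sum.

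The ligand genes were lower in sum in both bulge libraries. Summed over Areg, Ereg, Hbegf, Btc, Tgfa and Epgn, the level was 32.5 scaled FPKM in N, 11.98 in B and 5.86 in S. Most of this difference was Epgn, and without it the sums were 11.3, 7.16 and 5.55.

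Epgn encodes epigen, an EGFR ligand of epithelia, and lies on chromosome 5 (91027464 to 91035215, plus strand, ENSMUSG00000035020). It was at 21.2 (N), 4.82 (B) and 0.313 (S). The counting intervals did not overlap (20.1 to 22.3, 4.27 to 5.43 and 0.180 to 0.511). N was 4.40-fold above B and 67.8-fold above S, and B was 15.4-fold above S. The log2 ratio was -1.93 for B over N, -4.08 for S over N and -2.15 for S over B. Of 11598 measured genes, 56 had a lower ratio of S over N than Epgn, 218 a lower ratio of B over N and 199 a lower ratio of S over B. The S value rests on an estimated 16 fragments, or 7 if the shortest coding transcript is the one expressed, against 1461 and 272 in N and B for the longest. Its percentile of level among measured genes was 85.7 (N), 49.7 (B) and 3.44 (S).

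Besides the Schwann cell list (4.08, 4.04 and 2.88 in N, B and S), the summed levels of 3 marker lists had the same order over the libraries as Epgn. Not each gene in them did. The summed level of 5 interfollicular basal keratinocyte genes was 2052 (N), 1384 (B) and 1012 (S), with Krt14 at 588, 277 and 12.7, while Krt5, the most abundant, was at 818, 810 and 960. That of 7 differentiation genes was 3587, 1634 and 871, with Krtdap, the most abundant in N and B, at 2867, 1134 and 337. Sbsn, another gene of that list, went the other way, at 84.9, 122 and 460, and was counted as higher in S in both comparisons. Lor and Flg were at most 1.81 and 1.11 and lowest in N. The T and NK cell list summed to 35.4, 21.4 and 5.93, most of it Trbc2 (33.0, 19.8 and 4.01), while Cd3d was at most 0.0505 and Cd3e at most 1.18. Their part in the Epgn values was not tested.

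Hbegf encodes heparin-binding EGF-like growth factor, a ligand of EGFR and ErbB4 known from wound edges, and lies on chromosome 18 (36504929 to 36515805, minus strand, ENSMUSG00000024486). It was at 6.68 (N), 3.02 (B) and 2.21 (S). N was highest, and the interval of B (2.64 to 3.44) lay just above that of S (1.86 to 2.58). N was 2.22-fold above B and 3.02-fold above S. On the log2 scale with the pseudocount the ratio was -0.94 for B over N and -1.26 for S over N, so only the second was counted. With a pseudocount of 5 its log2 ratio of S over N was -0.70.

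Areg encodes amphiregulin, an EGFR ligand that keratinocytes make and respond to, and lies on chromosome 5 (91139599 to 91148432, plus strand, ENSMUSG00000029378). It was at 2.14 (N), 1.65 (B) and 0.698 (S). The intervals of N and B overlapped (1.75 to 2.60 and 1.27 to 2.10), and that of S (0.438 to 1.02) lay below both. N was 3.07-fold above S, but the log2 ratio with the pseudocount of 1 was -0.89 and was not counted. With a pseudocount of 0.1 it was -1.49.

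Tgfa, which encodes TGF-alpha and lies on chromosome 6 (86195223 to 86275719, ENSMUSG00000029999), was at 1.59 in both N and B and at 1.10 in S. The S interval (0.929 to 1.30) lay below those of N and B, and the log2 ratio was -0.30 for S over N. These intervals rest on 281 (N), 231 (B) and 144 (S) estimated fragments. If the shortest coding transcript is the one expressed, these are 25, 21 and 13, and the intervals are wider. Btc encodes betacellulin, a ligand of EGFR and ErbB4, and lies on chromosome 5 (91357261 to 91402994, minus strand, ENSMUSG00000082361). It was at 0.703 (N), 0.693 (B) and 1.28 (S). Btc was the ligand with the highest level in S relative to N, 1.82-fold, and its S interval (1.05 to 1.54) lay above those of N (0.555 to 0.874) and B (0.535 to 0.887). Ereg, on chromosome 5 (91074622 to 91093646, ENSMUSG00000029377), encodes epiregulin. It was at 0.228 (N), 0.211 (B) and 0.259 (S), with overlapping intervals, and rests on 28 to 37 estimated fragments.

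**Figure D2:**
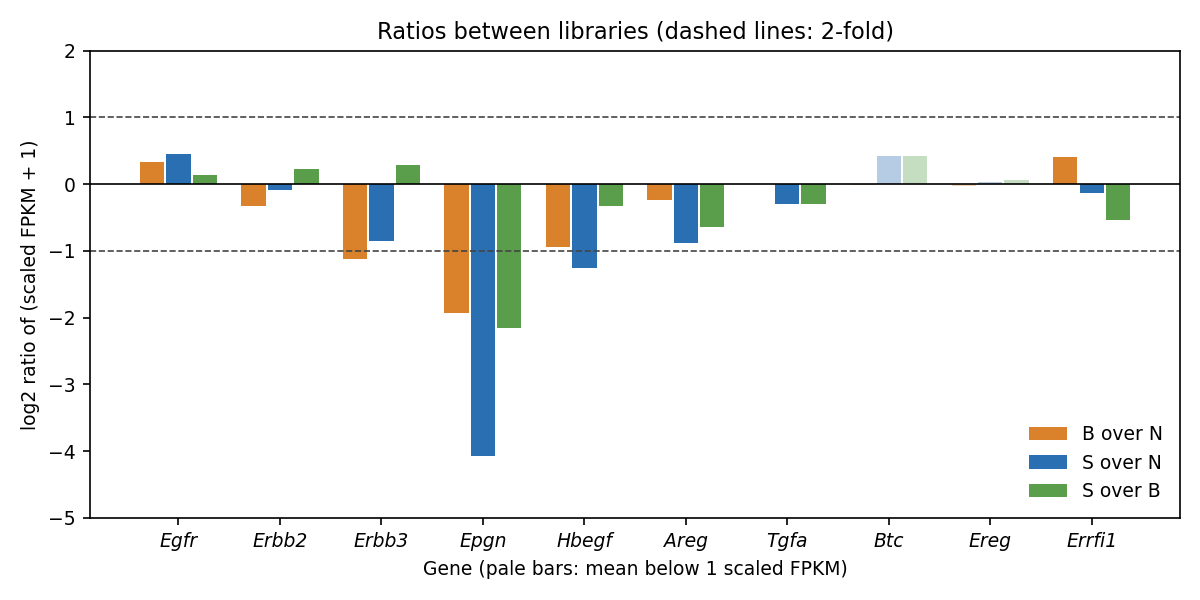
Log2 ratio of scaled FPKM plus 1 for each member in the 3 comparisons, with dashed lines at 2-fold and pale bars for Btc and Ereg, whose mean is below 1. Epgn is past the line in all 3 comparisons, Erbb3 in B over N (-1.12) and Hbegf in S over N (-1.26).

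The makeup of the ligand transcripts, a measure without scaling, differed between the libraries. Epgn was 65.1% of the summed FPKM of the 6 ligand genes in N, 40.2% in B and 5.33% in S. Hbegf was 20.5% in N, 25.2% in B and 37.7% in S, where it was the most abundant ligand. Btc was 2.16% in N, 5.78% in B and 21.8% in S, and Tgfa was 4.87%, 13.3% and 18.8%. Areg was 6.58%, 13.8% and 11.9%. A larger share for a gene such as Hbegf in S goes with a lower level, since the sum was lower there. Adding Egf, which was at most 0.191 scaled FPKM, gave an Epgn share of 64.8%, 39.8% and 5.22%.

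**Figure D3:**
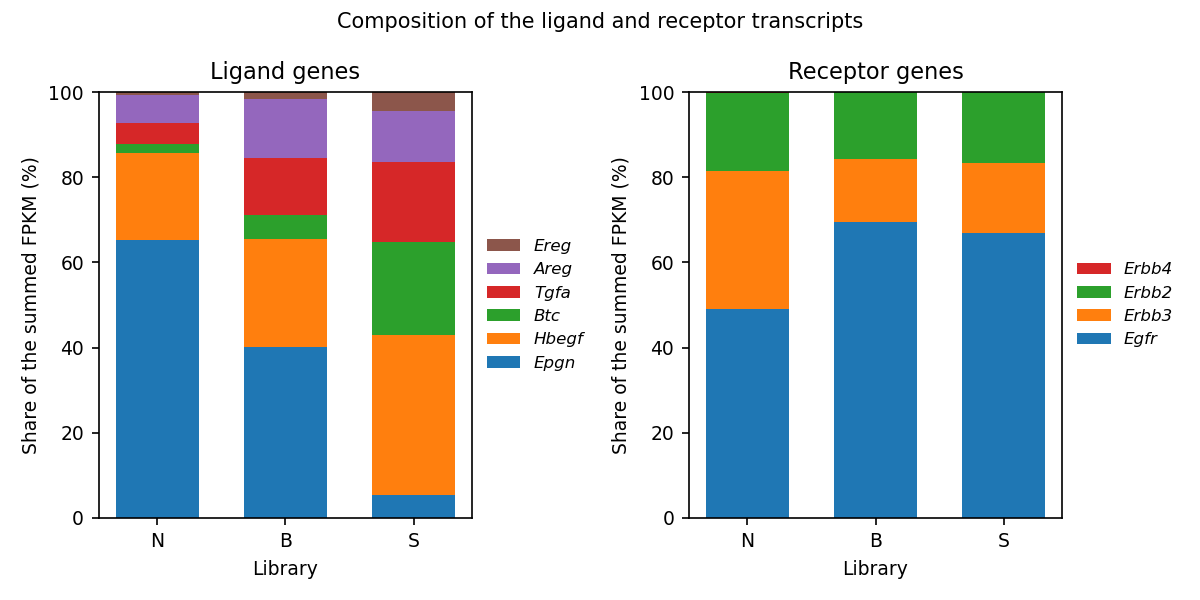
Share of the summed FPKM held by each of the 6 ligand genes (left) and each of the 4 receptor genes (right) in the N, B and S libraries. Epgn goes from 65.1% of the ligand sum in N to 5.33% in S, and Egfr from 49.0% of the receptor sum in N to 69.4% in B.

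Of the ligand genes, 4 lie in 1 stretch of chromosome 5 of 375531 bp, in the order Epgn, Ereg, Areg and Btc. The gap from Epgn to Ereg is 39406 bp, from Ereg to Areg 45952 bp and from Areg to Btc 208828 bp. The neighbours did not share 1 order of levels: Epgn and Areg were highest in N and lowest in S, Btc was highest in S, and Ereg was low in all. The next coding gene before Epgn, Mthfd2l, a folate enzyme gene, was at 2.90 (N), 2.32 (B) and 1.92 (S), with a log2 ratio of -0.42 for S over N against -4.08 for Epgn.

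Errfi1 encodes MIG6, which binds the EGFR kinase domain and shuts the receptor off, and is itself induced by the pathway. It lies on chromosome 4 (150853919 to 150868892, plus strand, ENSMUSG00000028967). It had the highest level of the 10 members in N and B, at 24.0 in N and 32.2 in B, and was at 21.9 in S, where Egfr (23.7) was above it. B was highest, and the interval of S (20.9 to 22.9) lay just below that of N (23.1 to 24.9). The log2 ratio was 0.41 for B over N and -0.54 for S over B, both short of 2-fold. The ratio of S over N was -0.13 and changed sign with the scaling.

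The genes with the levels most like a member's were taken over the 3 libraries among 5374 coding genes with a mean of at least 5, by the Euclidean distance between centred log2 values. For Epgn they were Skint1 (87.5, 21.2 and 3.77 in N, B and S, distance 0.094), the interferon-gamma receptor gene Ifngr1 (109, 29.4 and 6.75, distance 0.18) and Skint7 (38.3, 7.46 and 1.10, distance 0.20). Skint genes encode membrane proteins of keratinocytes and thymic epithelium. Only 2 genes lay within a distance of 0.2 of Epgn. For Erbb3 they were Ociad2, Ctsh and Sfn, and 64 genes lay within that distance. With 3 libraries, such a likeness is a description of 3 values.

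Of the other receptor and ligand genes of the family (Erbb4, Egf, Nrg1, Nrg2, Nrg3 and Nrg4), 1 of 6 was measured. Nrg4, a neuregulin that binds ErbB4, was at 2.33 (N), 2.21 (B) and 1.35 (S). Nrg1, a ligand of ErbB3 and ErbB4 that was named after its values were seen, was at 1.06 (N), 0.634 (B) and 0.00631 (S), the last from 1 estimated fragment. Erbb4 was at most 0.0822.

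Genes of ligand release and trafficking were mixed. Of 12 measured of 13, 2 were counted as lower in B than in N and 0 as higher, against 7.11% and 7.27% of all measured genes. In S against N 2 were higher and 3 lower, against 9.58% and 10.9%. In S against B 1 was higher and 1 lower, against 3.9% and 5.93%. The median log2 ratio was -0.43 for B over N, -0.39 for S over N and 0.07 for S over B, the last of which fell below 0 under the 3 other scalings. Adam17, the main protease for several EGFR ligands, was at 11.6 (N), 9.83 (B) and 14.7 (S), and did not reach 2-fold. Adam10, the protease for EGF and betacellulin, was at 8.86, 4.34 and 4.70. Adam15, a related membrane protease, was at 7.48, 12.2 and 31.1, and was counted as higher in S in both comparisons. Cnih4, a cargo receptor gene of the secretory pathway, was at 71.2, 45.1 and 46.3. Rhbdl2, a rhomboid protease of membrane proteins named after its values were seen, was at 4.83, 1.87 and 0.188, in the order of Epgn.

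In the list of the adaptors and the MAP kinase cascade 1 gene passed 2-fold, in 1 comparison. Of all measured genes 14.4% passed it in B against N, 20.5% in S against N and 9.83% in S against B. Of 19 measured of 21 genes, 0 passed 2-fold in B or in S against N, and Gab1, a docking protein of the receptors, was alone higher in S than in B, at 16.1 (N), 9.31 (B) and 23.1 (S). Mapk3, which encodes ERK1, came close in S against N, at 28.3 (N), 42.4 (B) and 57.0 (S) (log2 ratio 0.99). Braf was at 5.61, 6.76 and 10.2, and the adaptor gene Shc1 at 6.85, 4.37 and 3.92. The median log2 ratio of this list was 0.15 for S over B. It was -0.09 for B over N, and 0.18 on the same total without mitochondrial genes, and 0.14 for S over N, and -0.10 with the values as deposited.

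In the list of the PI3 kinase, phospholipase C and STAT branches, 1 of 13 measured genes of 15, Pik3r1, was higher in both bulge libraries than in N and 0 were lower. In S against B 0 passed 2-fold. Of all measured genes 7.27% were higher and 7.11% lower in B against N, and 9.58% and 10.9% in S against N. In S against B 9.83% of them passed 2-fold. Pik3r1, the p85-alpha regulatory subunit of PI3 kinase, was at 34.2 (N), 193 (B) and 203 (S). The catalytic subunit gene Pik3cb was at 11.6, 5.77 and 8.79, and Akt2 at 18.8, 15.1 and 9.83. Plcg1, which encodes phospholipase C gamma 1, was at 3.91, 4.93 and 7.33. The median log2 ratio of this list was 0.07 for S over B, which fell below 0 under the 3 other scalings. It was -0.23 for B over N, and 0.04 on the same total without mitochondrial genes, and 0.10 for S over N, and -0.15 with the values as deposited.

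Several negative regulators were lower in S than in N, and 2 of them, Dusp6 and Spred2, were also lower in S than in B. Of 28 listed genes 27 were found, as Spry3 was not in the data under that name, and 24 were measured. Of these 24, 7 were lower in S than in N and 1 higher, against 10.9% and 9.58% of all measured genes. In B against N 2 were lower and 1 higher, against 7.11% and 7.27%. In S against B 4 were lower and 0 higher, against 5.93% and 3.9%. The median log2 ratio was -0.54 for S over N, -0.30 for B over N and 0.04 for S over B, the last of which fell below 0 under the 3 other scalings. Lrig1, a membrane protein that promotes receptor breakdown and marks stem cells of the upper follicle, was at 34.7 (N), 10.8 (B) and 8.98 (S). The ubiquitin ligase gene Cblb was at 12.4, 6.89 and 5.18, and the cytokine signalling inhibitor gene Socs3 at 15.1, 5.24 and 5.57. Spred1, an inhibitor of RAS signalling, had another order, at 5.52 (N), 11.8 (B) and 2.46 (S). Named after their values were seen, the ERK phosphatase gene Dusp6 was at 4.02, 3.71 and 0.782 and Spred2 at 6.57, 5.05 and 1.01, so both had close levels in N and B and a low one in S. Low genes carry much of the count of 7, which was 3 with a mean of at least 5, 1 with a pseudocount of 5 and 10 with the values as deposited.

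Among transcripts known to be induced by ERK signalling, 6 of 15 measured of 19 were lower in S than in N and 0 higher. Of all measured genes, 10.9% were lower and 9.58% higher in that comparison. In B against N 1 was lower and 1 higher, against 7.11% and 7.27% of all measured genes. In S against B 4 were lower and 0 higher, against 5.93% and 3.9%. The median log2 ratio was -0.59 for S over N, -0.46 for B over N and -0.08 for S over B. Fosl1, a partner of JUN, was at 11.2 (N), 5.72 (B) and 1.12 (S), and the cyclin D1 gene Ccnd1 at 8.86, 6.15 and 0.807. Egr2 was at 39.3, 8.96 and 8.73, and Ier2 at 21.0, 12.1 and 9.78. Fos (239, 170 and 200) and Egr1 (135, 124 and 186), named after their values were seen, did not reach 2-fold in any comparison. The count of 6 was 3 with a pseudocount of 5. Many of these genes answer to other signals too, and no list here was tested against other genes.

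**Figure D4:**
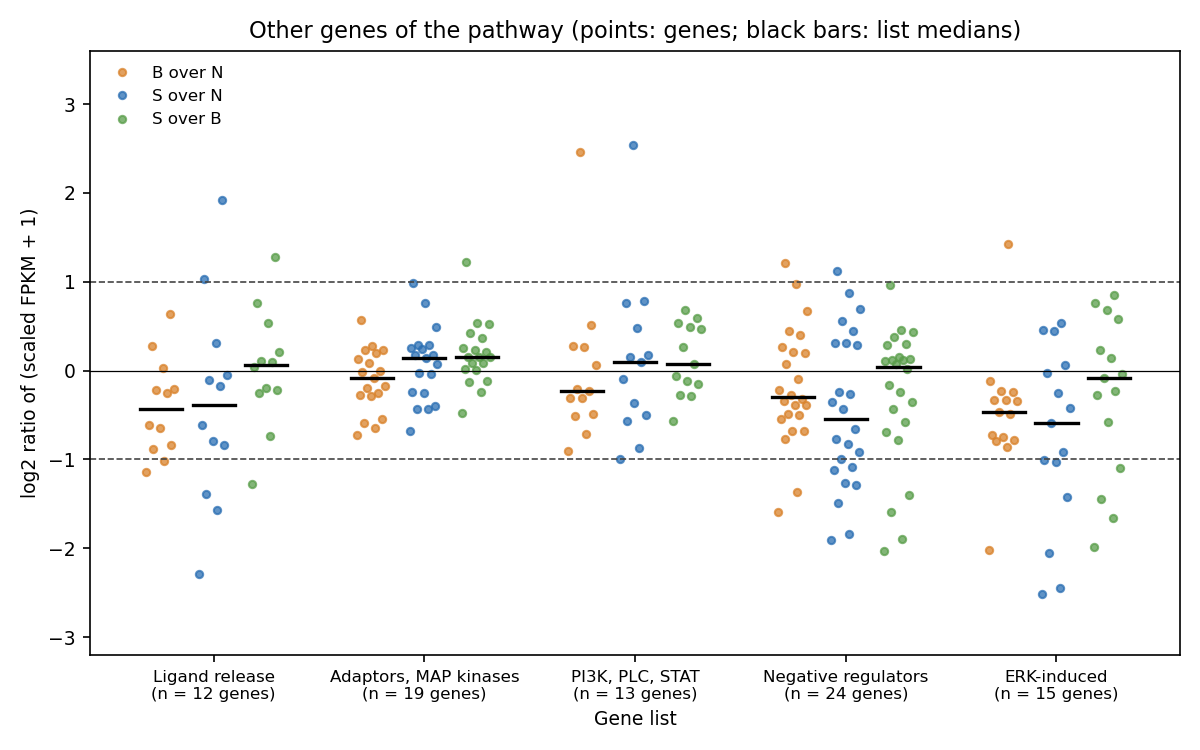
Log2 ratio of scaled FPKM plus 1 for each measured gene of 5 pathway lists in the 3 comparisons, with black bars for the medians and dashed lines at 2-fold. The MAP kinase list lies within 2-fold of N in both bulge libraries. The negative regulators and ERK-induced genes have 7 and 6 genes below the lower line for S over N. Of all measured genes 10.9% lie there.

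Lists for other cell types differed in level and direction. The most abundant genes were Mitf for melanocytes (2.08, 16.4 and 34.4 in N, B and S), H2-Aa for Langerhans and myeloid cells (13.5, 4.81 and 4.51), Col6a1 for fibroblasts (0.242, 13.9 and 25.9), Ramp2 for endothelial cells (2.35 in B, below 1 in N and S) and Cpa3 for mast cells (at most 0.145). H2-Aa and H2-Ab1 (12.2, 3.30 and 2.54) were counted as lower in both bulge libraries against N. Cd68 of the same list went the other way, at 1.69, 2.11 and 6.03, and was counted as higher in S in both comparisons. Cd74 of that list was measured and was not counted in any comparison. The part of these genes in the members' values was not tested. Of the defining genes, Tyr was at most 0.250, Cd207 at most 0.343 and Col1a1 at most 0.115. Other genes of these lists differed from them. Col1a2 was at 0.103 (N), 1.77 (B) and 1.34 (S), and was counted as higher in both bulge libraries against N. Tyr was highest in N, while Dct (0, 0.513 and 0.475) and Pmel (0.0622, 0.213 and 0.321) were lowest there. With the values as deposited, the share of all measured genes counted as higher and lower was 6.19% and 9.48% in B against N and 7.40% and 14.5% in S against N, and on the same total without mitochondrial genes it was 10.1% and 4.77%, and 11.4% and 9.53%.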

How the data were processed

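Poly(T) and random-primed cDNA was amplified, made into Nextera XT libraries and read as pairs of 75 bases, per the labels' protocols. The authors deposited 1 FPKM value per Ensembl gene and population, per the file headers for N and S. For B the header names the population only, and its unit was inferred from the value steps. The submitters' processing notes name TopHat2 2.0.12, Cufflinks 2.1.1, DESeq2 and mm10 without roles. The sources used here do not give the annotation, read filters or strand setting.

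Of 49452 rows, 49109 matched a symbol, rows of 1 symbol were summed, and the remaining 343 kept their identifiers. Coordinates were those of GENCODE M21 for 91.5% of the rows found in it. Median-of-ratios factors came from the 18618 genes with a value in every library and were 1.10 (N), 0.981 (B) and 0.923 (S). Depth was found from single-exon genes of at least 3000 bp, where 94.6% to 97.4% of values under 10 fragments lay within 0.1 of a whole fragment. Fragments per gene were estimated from depth, FPKM and the longest GENCODE coding transcript, so intervals are approximate where several transcripts exist. Filter: mean of at least 1. Python 3.11.15, pandas 2.3.3, NumPy 2.4.6 and SciPy 1.17.1 were used, and the counting rule was tested on simulated data.

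The members and lists were chosen with earlier results of these data known. Named genes are the members, up to 4 genes per pathway list with the largest ratio in any comparison and a mean of 5 or more, the most abundant gene per marker list, the genes most like a member, and chromosomal neighbours. Others outside these rules, such as Krt14, Sbsn and H2-Ab1 of the marker lists, were named with their values seen. Not each of them is marked so in the text. The gene named Nrdc in RefSeq's synonyms was matched as Nrd1. Of the listed genes 2 are not reported here and were left out of the list counts, sums and medians. The closing section gives 7 alternatives.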

Additional observations from a re-analysis of the deposited data

How the results depend on the processing

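With 1 library per group, no replicate could be left out. No paired analysis was possible because each group had 1 library. Of 42 recomputed counts of members past 2-fold, 35 stayed within 1.5 times the reported count and 7 did not. All 7 were counts of lower members, and the 35 include every count of higher members, each of them 0. Members lower in S than in N were 4 with the values as deposited (Erbb3 and Areg added), against 2 reported. They were 1 with a pseudocount of 5, and 1 with a mean of at least 5, which Hbegf (mean 3.97) did not reach. Members lower in B than in N were 1 with a pseudocount of 5 and 1 on the same total without mitochondrial genes (Epgn), against 2. Members lower in S than in B were 2 with a pseudocount of 0.1 (Areg added) and 0 with a pseudocount of 5, against 1. The cause of the other changes was not tested. Epgn was past 2-fold against N under all 8 settings (log2 ratio -5.69 to -2.30 for S and -2.12 to -1.42 for B), and for S over B under 7 (-3.58 to -0.89). The count of members at least 2-fold higher was 0 under every setting.

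Egfr kept a ratio above 0 in the 3 comparisons under the 8 settings (0.21 to 0.60 for S over N), short of 2-fold. Signs changed for Tgfa (B over N, -0.10 to 0.18), Erbb2 (S over N, -0.31 to 0.05) and Errfi1 (S over N, -0.38 to 0.02). Of 159 recomputed member ratios 39 moved by more than the counting interval and 0 of those past 2-fold changed sign. Of 252 counts for pathway lists 46 moved by over 1.5 times. The median of all genes was -0.18 for both B and S over N with values as deposited, and 0.18 and 0.15 on the same total without mitochondrial genes. Depth limits Ereg, and Epgn and Areg in S, most.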
